A study of Sus scrofa with 24 samples.

Results

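The class II antigen presentation genes of the pig were followed in subcutaneous adipose tissue: CD74, SLA-DRA, SLA-DRB1, SLA-DQA1, SLA-DQB1, SLA-DMA, SLA-DMB, SLA-DOA, SLA-DOB and CIITA. SLA, the swine leukocyte antigen complex, is the major histocompatibility complex of the pig. Probes were taken as members when the gene name in the scanner files, or the symbol of the RefSeq identifier beside it, was one of these 10 names. That rule found 34 of the 43603 probes on the array, covering 9 of the 10 genes, and none for CIITA. Of the 34 probes, 31 passed the filter on dim signals, out of 28606 kept in all, and they covered 8 genes. The 3 probes of SLA-DOB did not pass. Each of the 31 was well above background on all 24 arrays, so none was kept through 1 group alone.

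Class II molecules are pairs of an alpha and a beta chain that display peptides from endocytosed proteins to CD4+ T cells. The chains assemble in the endoplasmic reticulum on the invariant chain CD74, which fills the groove and routes the complex to endosomes, where cathepsins cut CD74 down and the DM heterodimer exchanges its last fragment for a peptide. DO restrains DM, and the transactivator CIITA switches the whole set of genes on. In adipose tissue the main class II-bearing cells are macrophages, dendritic cells and B cells, and adipocytes have been described to express class II genes in mouse and human. In the RefSeq annotation the 8 SLA genes lie on chromosome 7 in the order SLA-DRA, SLA-DRB1, SLA-DQA1, SLA-DQB1, SLA-DOB, SLA-DMB, SLA-DMA, SLA-DOA, while CD74 is on chromosome 2 and CIITA on chromosome 3.

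The study compared 3 groups of 8 pigs at 115 kg body weight, with 1 one-colour Cy3 array per pig. RFIneg pigs came from a low residual feed intake line and ate freely, RFIplR pigs came from the high line and were given the feeding level of the RFIneg pigs, and RFIpl pigs came from the high line and ate freely. Residual feed intake is the feed eaten beyond what growth and maintenance predict, so a low value marks an efficient animal. Setting RFIneg beside RFIpl compares the lines under free feeding, setting RFIneg beside RFIplR compares them at equal feeding, and setting RFIplR beside RFIpl compares restricted with free feeding inside the high line. The labels give body weight but neither sex nor age, and a whole piece of tissue was extracted, so fewer cells of a type and less RNA per cell cannot be told apart.

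All levels below are log2 of the processed intensity minus the array's own 75th percentile, so 0 is the level of an array's upper quartile, and levels are compared for one probe at a time. The arrays fell into 17 bright ones, with a 75th percentile of 414 to 663 intensity units, and 7 dim ones, with 69.4 to 94.4 units. The dim arrays were RFIneg 1 and 7, RFIplR 2, 4 and 6, and RFIpl 5 and 6. All 7 were scanned on the second of 3 scan days, over 3 of 7 slides, together with 3 bright arrays. RFIpl 2 carried skeletal muscle transcripts and RFIpl 7 and 8 carried keratinocyte transcripts: TNNT3, a fast muscle troponin, stood at 7.19 in RFIpl 2, and SFN, an epidermal 14-3-3 protein, at 5.27 and 3.73 in RFIpl 7 and 8. TNNT3 was also raised in RFIpl 1, at 1.72, where RFIneg 6 came next at -0.18. The adipocyte markers were well above background on every array for all 10 genes listed.

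CD74 had its lowest levels in RFIpl pigs, and the difference passed the test when array brightness was a block but not when all arrays were pooled. On the bright arrays its brighter probe, starting at base 434 of its transcript, ranged from 2.47 to 2.65 with a median of 2.50 in RFIneg (n = 6), and stood at 2.45, 2.54, 2.72, 2.74 and 2.97 in RFIplR (n = 5). In RFIpl it ranged from 1.80 to 2.46 with a median of 1.999 (n = 6). All 6 bright RFIpl arrays lay below every bright RFIneg array, and 5 of the 6 lay below every bright RFIplR array, with RFIpl 3, at 2.46, just above the lowest RFIplR pig. On the dim arrays the same probe read 3.12 and 3.11 in RFIneg, 3.30, 3.15 and 3.05 in RFIplR, and 2.94 and 2.70 in RFIpl, again with RFIpl lowest. This probe is printed because it was the one class II probe of 31 whose bright RFIneg and RFIpl arrays did not overlap, against 0.545% of all kept probes with RFIneg entirely higher. It starts inside the CD74 transcript and is given 5′ to 3′:
CD74, start 434: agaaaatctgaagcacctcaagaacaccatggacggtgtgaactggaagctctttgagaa
The second CD74 probe, starting at base 79, was the one class II probe of 31 whose bright RFIplR arrays all lay above the bright RFIpl arrays. Of all kept probes 2.17% did so, and 1 of 31 is near that share.

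**Figure D1:**
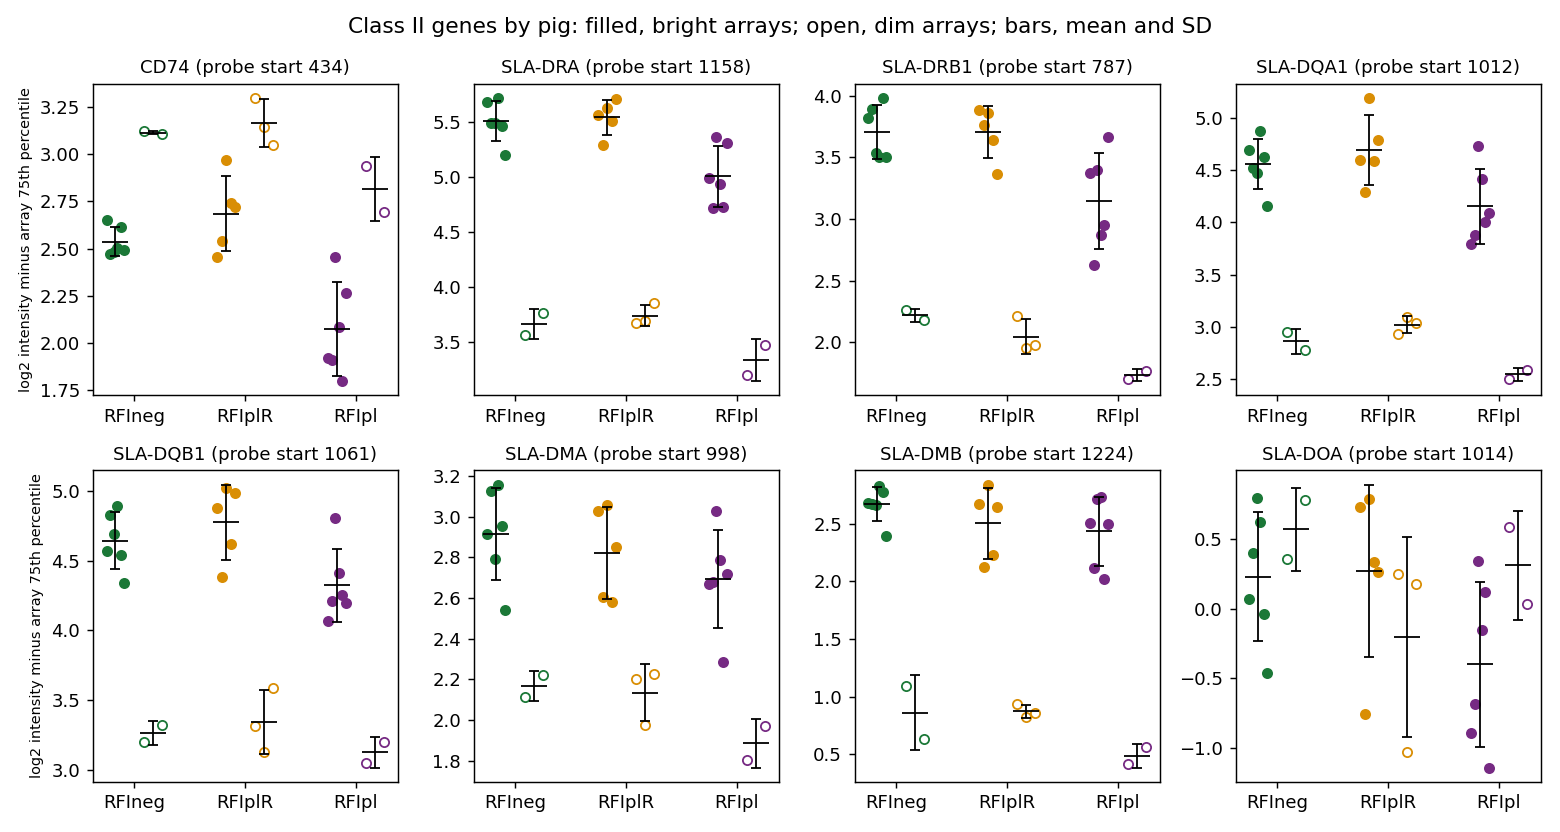
Level of each class II gene at its brightest probe, one point per pig, in RFIneg, RFIplR and RFIpl (y axis, log2 intensity minus the array's 75th percentile; each panel has its own range). Filled points are bright arrays and open points dim arrays, with bars for the mean and SD of each. CD74 was higher on the dim arrays, the SLA-DR, SLA-DQ and SLA-DM genes were lower there, and in both classes the mean of RFIpl was lowest for CD74, SLA-DRA, SLA-DRB1, SLA-DQA1 and SLA-DQB1.

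Over all 8 pigs a group, CD74 averaged 2.68 ± 0.28 in RFIneg, 2.865 ± 0.298 in RFIplR and 2.26 ± 0.41 in RFIpl (SD, n = 8 each). Tested over all arrays with group alone in the model, no class II probe passed in any comparison (limma, Benjamini-Hochberg adjusted p over all 28606 probes, threshold 0.05). In that pooled fit 0.206% of all kept probes were called in RFIneg against RFIpl, 0% in RFIneg against RFIplR and 0.297% in RFIplR against RFIpl. At an unadjusted p under 0.05, 3 of 31 class II probes passed in RFIneg against RFIpl, 0 in RFIneg against RFIplR and 6 in RFIplR against RFIpl. Of all 28606 kept probes 1962, 605 and 2341 did so in the same comparisons, so the first 2 counts are near or below the share over all probes. The CD74 probe at base 434 differed by 0.42 (SE 0.18, adjusted p = 0.61, limma) in RFIneg against RFIpl and by 0.61 (SE 0.18, adjusted p = 0.17, limma) in RFIplR against RFIpl. All 31 class II probes were higher in RFIneg than in RFIpl in this fit, with a median difference of 0.41. All kept probes had a median of -0.01, and 49.0% were positive. The 31 probes cover 8 genes, and most probes of a gene follow each other on the same pigs. They are therefore not 31 independent results.

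With array brightness as a block, the CD74 differences were 0.42 (SE 0.10, adjusted p = 0.013, limma) in RFIneg against RFIpl and 0.53 (SE 0.10, adjusted p = 0.0020, limma) in RFIplR against RFIpl, a level 1.34 times and 1.45 times that of RFIpl. Both CD74 probes were called in both comparisons. These comparisons share the RFIpl arrays and are not independent of each other. RFIneg against RFIplR gave -0.11 (SE 0.10, adjusted p = 0.74, limma). In this fit 13 of 31 class II probes were called in RFIneg against RFIpl, all higher in RFIneg. They belonged to CD74, SLA-DRA and SLA-DRB1 alone. Of all kept probes 6.62% were called there and 4.32% were called and higher. In RFIplR against RFIpl 19 of 31 were called, all higher in RFIplR. They belonged to the same genes and to SLA-DQA1 and SLA-DQB1. Of all kept probes 10.4% were called there and 5.85% were called and higher. In RFIneg against RFIplR none was called, as was the case for all kept probes, and 1 of 31 had an unadjusted p under 0.05, against 2714 of the 28606 kept probes.

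These counts moved with the processing. With slide and brightness both as blocks they were 0 and 13 (0.996% and 3.64% of all kept probes were called and higher), and over the bright arrays alone they were 0 and 7 (0.745% and 2.33%). They were 1 and 7 without RFIpl 1 and 2, 6 and 8 without RFIpl 7 and 8, and 4 and 0 with normexp background correction, each with brightness as a block. Of all 28606 kept probes 550 and 1900, 884 and 1782, and 372 and 766 were called in those fits. The 1 without RFIpl 1 and 2 and the 0 with normexp are thus near or below the share over all probes. Without RFIpl 1 the count in RFIneg against RFIpl was 6, and without RFIplR 5 the count in RFIplR against RFIpl was 11. Over the blocked fits that each left out 1 pig, all kept probes called ran from 1023 to 3399 and from 2000 to 3671 in these comparisons. In the pooled fit normexp moved the median of all kept probes to 0.20 in RFIplR against RFIpl, and SLA-DRA and SLA-DQB1 then stood at -0.01 and -0.07, below that shift. The CD74 difference itself kept its sign within every slide and brightness class that held both groups, on 5 of 5 in RFIneg against RFIpl, from 0.19 to 0.57, and on 4 of 4 in RFIplR against RFIpl, from 0.18 to 0.83. So did SLA-DRA, SLA-DRB1, SLA-DQA1, SLA-DQB1 and SLA-DMB in the first comparison, and SLA-DRB1 in the second. Within slides without regard to brightness, CD74 was higher on 4 of 5 in RFIplR against RFIpl, with a lowest difference of -0.005. On the first scan day, where all arrays were bright, CD74 differed by 0.33 in RFIneg against RFIpl and 0.54 in RFIplR against RFIpl (adjusted p = 0.55 and 0.15, limma), and no kept probe was called in either comparison on that day.

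**Figure D2:**
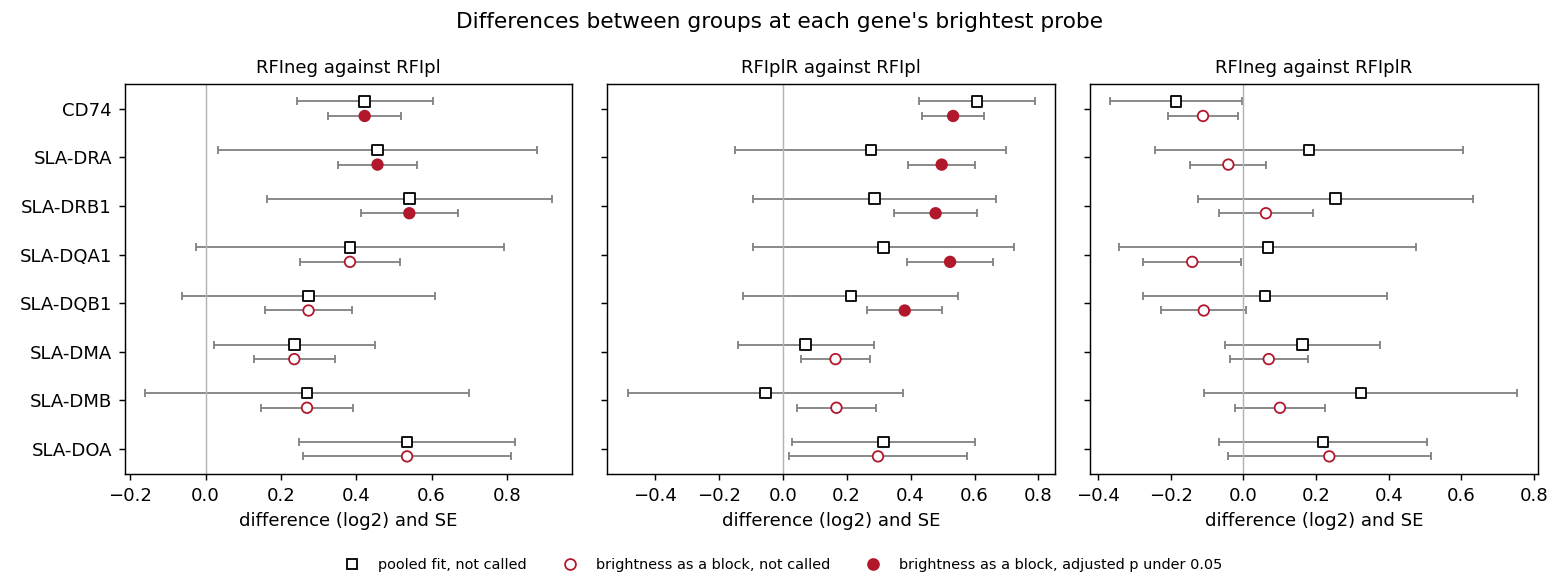
Difference between groups (x axis, log2, with its SE) for each class II gene at its brightest probe in the 3 comparisons. Squares are the fit with group alone, circles the fit with array brightness as a block, and filled circles have an adjusted p under 0.05. In RFIneg against RFIpl 3 genes are filled, in RFIplR against RFIpl 5, and in RFIneg against RFIplR none; no square is filled in any panel.

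The DR chains were also lowest in RFIpl, without the order CD74 had between the other groups. SLA-DRA, the near-invariant alpha chain of the DR molecule, ranged at its probe starting at base 1158 from 5.20 to 5.72 with a median of 5.49 on the bright RFIneg arrays. The bright RFIplR arrays stood at 5.30, 5.51, 5.57, 5.63 and 5.71, and the bright RFIpl arrays ranged from 4.72 to 5.36 with a median of 4.96. Of the 6 bright RFIpl arrays 4 lay below every bright array of RFIneg and of RFIplR. RFIpl 3 and RFIpl 8, at 5.36 and 5.31, lay among the others. SLA-DRA differed, with brightness as a block, by 0.46 (SE 0.10, adjusted p = 0.013, limma) in RFIneg against RFIpl and by 0.50 (SE 0.10, adjusted p = 0.0051, limma) in RFIplR against RFIpl. All 7 SLA-DRA probes were called in both, with differences of 0.42 to 0.50 and 0.40 to 0.53. In RFIneg against RFIplR it was -0.04 (SE 0.10). In the pooled fit the SE was 0.42 and the differences were 0.46 and 0.28, neither of them called.

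SLA-DRB1, the polymorphic beta chain of DR, ranged at base 787 from 3.50 to 3.99 with a median of 3.68 on the bright RFIneg arrays and stood at 3.37, 3.64, 3.76, 3.86 and 3.88 on the bright RFIplR arrays. The bright RFIpl arrays ranged from 2.63 to 3.66 with a median of 3.16. Here 5 of 6 bright RFIpl arrays lay below every bright RFIneg array, but 3 of 6 below every bright RFIplR array. RFIpl 8 was the highest RFIpl pig for SLA-DRB1, in place of RFIpl 3. Blocked by brightness, the difference was 0.54 (SE 0.13, adjusted p = 0.016, limma) in RFIneg against RFIpl, with all 4 probes called at 0.54 to 0.60. In RFIplR against RFIpl it was 0.48 (SE 0.13, adjusted p = 0.021, limma), with 2 of 4 probes called.

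Both DQ chains were called in one comparison. SLA-DQA1, the DQ alpha chain, ranged at base 1012 from 4.16 to 4.88 with a median of 4.58 on the bright RFIneg arrays. It stood at 4.29, 4.59, 4.60, 4.80 and 5.20 on the bright RFIplR arrays and ranged from 3.79 to 4.73 with a median of 4.05 on the bright RFIpl arrays. The RFIpl pigs overlapped the others through RFIpl 3, at 4.73, and RFIpl 4, at 4.42. Blocked by brightness, it differed by 0.52 (SE 0.13, adjusted p = 0.017, limma) in RFIplR against RFIpl, where 7 of its 8 probes were called. In RFIneg against RFIpl the difference was 0.38 (SE 0.13, adjusted p = 0.085, limma) and none of the 8 passed.

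SLA-DQB1, the DQ beta chain, ranged at base 1061 from 4.34 to 4.89 with a median of 4.63 on the bright RFIneg arrays. It stood at 4.38, 4.62, 4.88, 4.98 and 5.02 on the bright RFIplR arrays and ranged from 4.07 to 4.81 with a median of 4.23 on the bright RFIpl arrays. RFIpl 3 was again the highest RFIpl pig. Blocked by brightness, the difference was 0.38 (SE 0.12, adjusted p = 0.040, limma) in RFIplR against RFIpl, with 1 of 4 probes called. That call was kept in 13 of 24 fits that each left out 1 pig and was lost without RFIpl 1, 2, 4, 5, 7 or 8 or RFIplR 1, 5, 6, 7 or 8, where those of CD74, SLA-DRA, SLA-DRB1 and SLA-DQA1 were kept in 24 of 24. SLA-DQB1 differed by 0.27 (SE 0.12, adjusted p = 0.16, limma) in RFIneg against RFIpl. Without RFIpl 3 both DQ genes were called in RFIneg against RFIpl, and SLA-DQA1 was also called without RFIneg 8.

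The peptide editors were not called in any comparison, pooled or with brightness as a block. SLA-DMA, the alpha chain of DM, averaged 2.91 ± 0.23 in RFIneg (n = 6), 2.82 ± 0.23 in RFIplR (n = 5) and 2.69 ± 0.24 in RFIpl (n = 6) on the bright arrays (SD). SLA-DMB, its beta chain, averaged 2.67 ± 0.15 in RFIneg, 2.50 ± 0.31 in RFIplR and 2.43 ± 0.30 in RFIpl on the same arrays. SLA-DMA and SLA-DMB, blocked by brightness, differed by 0.24 (SE 0.11) and 0.27 (SE 0.12) in RFIneg against RFIpl (adjusted p = 0.19 for each, limma). SLA-DOA, the alpha chain of DO, varied most among pigs of a group, from -0.46 to 0.79 in RFIneg, from -0.75 to 0.78 in RFIplR and from -1.14 to 0.34 in RFIpl on the bright arrays. Its difference was 0.53 (SE 0.28, adjusted p = 0.25, limma) in RFIneg against RFIpl with brightness as a block. That SE was 0.28, against 0.10 for CD74 in the same fit.

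SLA-DOB, the beta chain of DO and in mouse and human largely a B cell gene, was close to the detection limit. Its 3 probes were well above background on 3, 9 and 14 of 24 arrays, and it was not tested. No probe carried CIITA by the rule, but one outside it is described as the class II transactivator, with no RefSeq identifier. That probe averaged -0.29 ± 0.21 in RFIneg (n = 6), -0.37 ± 0.16 in RFIplR (n = 5) and -0.24 ± 0.20 in RFIpl (n = 6) on the bright arrays (SD), so the 3 groups overlapped there. On the dim arrays it ranged from 1.72 to 2.18 over all 3 groups. A second probe outside the rule, described as similar to C2ta, the mouse transactivator, was well above background on 22 of 24 arrays. On the bright arrays it ranged from -2.08 to -1.34 in RFIneg, -1.97 to -1.30 in RFIplR and -1.84 to -1.64 in RFIpl. The 2 probes differed between dim and bright arrays: the first by 2.24 and the second by -0.25.

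One probe of SLA-DQA1 behaved unlike the other 7. The probe starting at base 310 stood at 1.82, 1.55, 1.39 and 1.55 in RFIneg 2, 4, 5 and 6, at 2.87 in RFIplR 5, and at 1.42, 1.97 and 0.95 in RFIpl 3, 4 and 7. The other bright arrays ranged from -0.94 to 0.07, so the bright pigs formed a high and a low set that ran across all 3 groups. Among the dim arrays RFIneg 1 stood at 0.77, and the other 6 ranged from -1.28 to -0.15. The other 7 probes of the gene followed each other over the 17 bright arrays with r of 0.876 to 0.988, and the probe at base 310 followed them with r of 0.469 to 0.668. These correlations, and those with single probes below, are descriptions of probes on the same arrays.

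A probe outside the rule, described as a class II alpha chain with no member's name, split the pigs in nearly the same way (r = 0.911 with the probe at base 310 over the 17 bright arrays). Both sequences are shown because they are so alike. Set side by side without gaps they match at 54 of 59 bases (91.5%), and capitals mark the 5 bases that differ:
SLA-DQA1, start 310: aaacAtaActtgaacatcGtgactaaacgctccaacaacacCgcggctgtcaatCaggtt
class II alpha chain, not a member: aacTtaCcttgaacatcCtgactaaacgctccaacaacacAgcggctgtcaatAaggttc
The exception was RFIpl 2, which stood at 0.07 on the SLA-DQA1 probe and at 0.90 on the other. RFIpl 2 was also the highest pig on 2 further probes outside the rule. It stood at 3.20 on one that the files name SLA-DQA, where the other bright arrays reached 2.34, and at 1.83 on one described as the alpha chain of DQ haplotype D, where they reached -0.85.

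**Figure D3:**
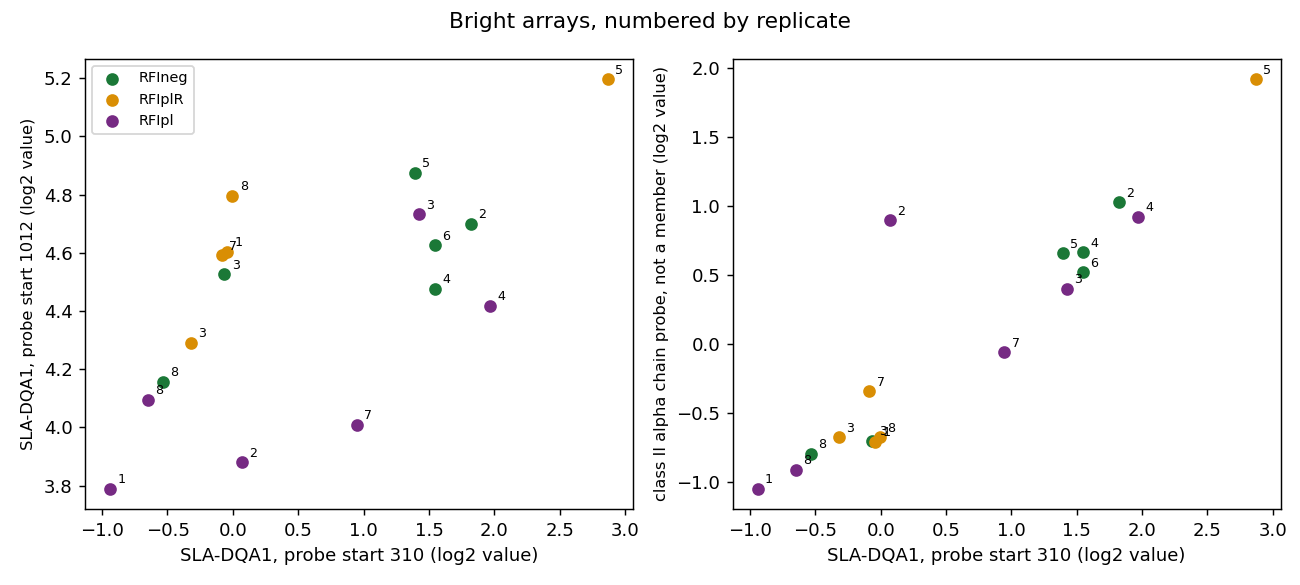
Level of the SLA-DQA1 probe starting at base 310 (x axis, log2) on the 17 bright arrays, against another SLA-DQA1 probe (left) and against the class II alpha chain probe outside the rule (right). Points are pigs, coloured by group and numbered by replicate. The high set, from 0.95 to 2.87, holds pigs of RFIneg, RFIplR and RFIpl, and on the right RFIpl 2 stands off the line of the others.

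A second DQ probe showed part of this split. The SLA-DQB1 probe starting at base 1104 had r = 0.856 with the SLA-DQA1 probe at base 310 over the bright arrays. Among the 4 SLA-DQB1 probes r ranged from 0.211 to 0.873, the widest spread of any member gene. The lowest values, 0.211 to 0.447, were those of the probe at base 13, which had r = -0.041 with the SLA-DQA1 probe at base 310. Without it r ranged from 0.602 to 0.873. The member probes of the DR genes held together more closely, with r of 0.922 to 0.993 among the 7 of SLA-DRA and 0.970 to 0.990 among the 4 of SLA-DRB1. The lengths of sequence that probes of a gene share limit this comparison: 4 of 21 SLA-DRA pairs, 1 of 6 SLA-DRB1 pairs, 3 of 28 SLA-DQA1 pairs and 1 of 6 SLA-DQB1 pairs had 15 or more bases in common.

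The difference between dim and bright arrays varied widely among the probes of SLA-DRA, SLA-DQA1 and SLA-DQB1, and less among those of the other genes. Between dim and bright arrays the SLA-DRA probe at base 870 differed by -2.72, averaging 1.33 ± 0.13 on the dim arrays (n = 7) and 4.05 ± 0.35 on the bright (n = 17), whereas the SLA-DRA probe at base 250 differed by -0.39, with 2.26 ± 0.27 and 2.64 ± 0.37. The probe at base 250 is printed as the SLA-DRA probe that moved least:
SLA-DRA, start 250: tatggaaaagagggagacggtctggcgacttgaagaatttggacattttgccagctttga
Within SLA-DQA1 the probes at base 528 and base 860 differed by 0.47 and -2.50. Both CD74 probes were higher on the dim arrays, by 0.96 and 0.64. Over all kept probes the dim minus bright difference had a median of -0.05 and ran from -2.29 at the 5th percentile to 3.22 at the 95th. In SLA-DQA1 the 3 probes at bases 503, 528 and 555 differed least from 0, by -0.24, 0.47 and 0.42.

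**Figure D4:**
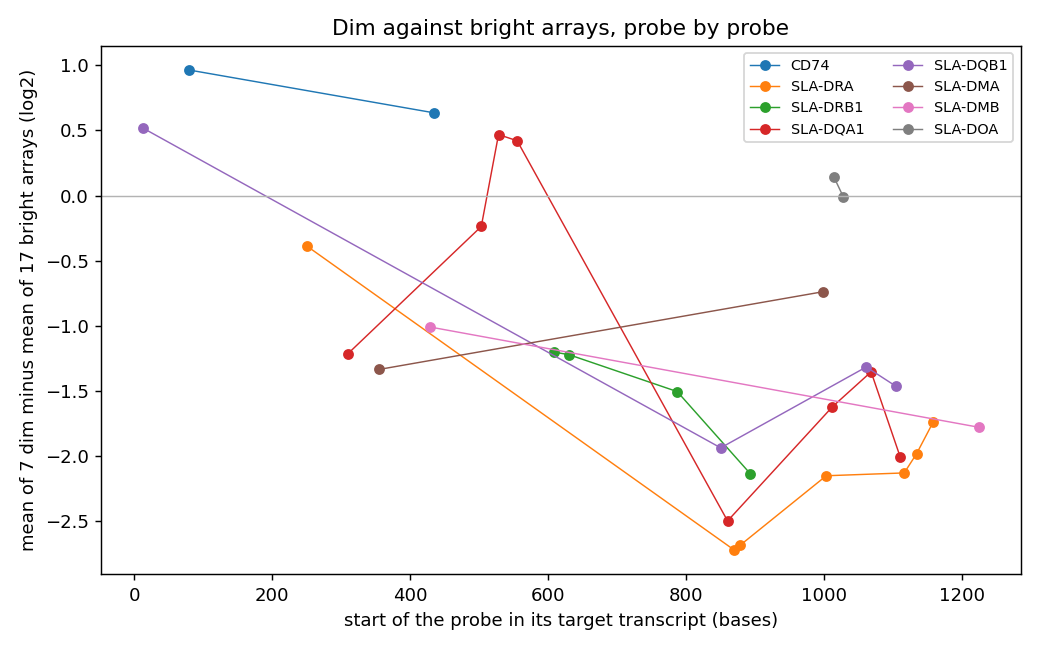
Mean of the 7 dim arrays minus the mean of the 17 bright arrays (y axis, log2) for each kept class II probe, against the start of the probe in its target transcript (x axis, bases). Points of a gene are joined. Values run from -2.72 for an SLA-DRA probe to 0.96 for a CD74 probe, and probes of one gene can lie on both sides of 0.

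The class II genes varied together from pig to pig to different degrees. Over the 17 bright arrays, the 28 pairs of the 8 genes had a Pearson r of 0.287 to 0.919 with a median of 0.689, and 23 of 28 pairs passed a permutation test (two-sided, 100000 permutations, adjusted over the 28 pairs). By Spearman's rho 17 of 28 passed. Pairs of other kept genes were not tested in this way, so neither count has a background share beside it. The closest pair was SLA-DQA1 with SLA-DQB1 (r = 0.919, rho = 0.904, permutation p = 1e-05 and 3e-05, adjusted 9.33e-05 and 0.00035), and r was 0.886 without the 2 arrays farthest from the median of SLA-DQA1. CD74 with SLA-DRA followed (r = 0.885, rho = 0.748, permutation p = 1e-05 and 0.00084, adjusted 9.33e-05 and 0.00263), at 0.791 without the 2 farthest arrays. SLA-DMA with SLA-DMB had r = 0.861 and rho = 0.850 (permutation p = 1e-05 and 5e-05, adjusted 9.33e-05 and 0.00035), at 0.790 without them. SLA-DRB1 with SLA-DOA was the loosest pair (r = 0.287, rho = 0.306, permutation p = 0.264 and 0.231, adjusted 0.264 and 0.240), at 0.113 without them. The groups enter these values; taken as deviations from the group means, the pairs ranged from -0.141 to 0.864 with a median of 0.608. SLA-DRB1 stood apart from the DQ genes on this measure, at 0.159 with SLA-DQA1 and 0.016 with SLA-DQB1.

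**Figure D5:**
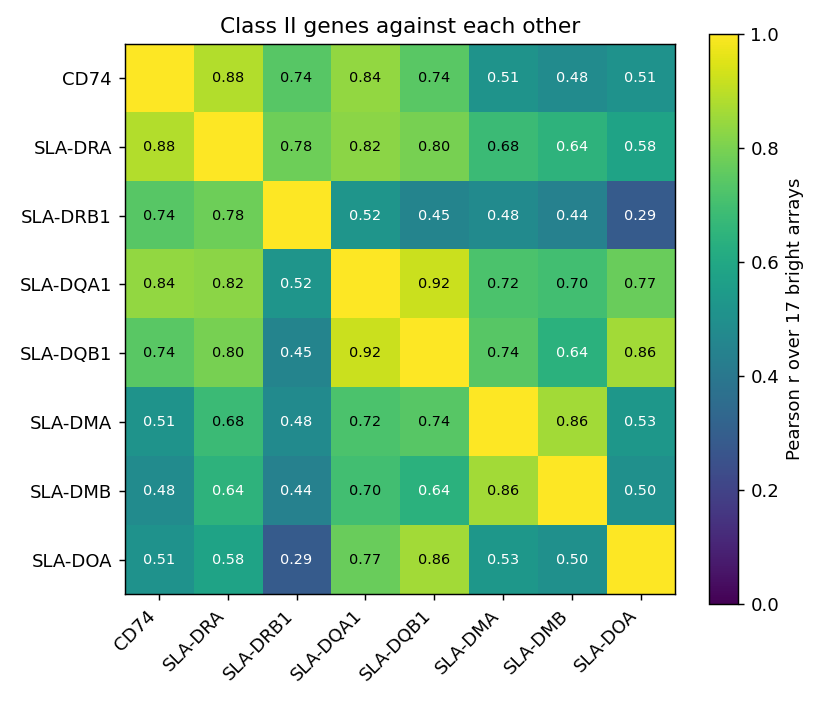
Pearson r between the class II genes at their brightest probes over the 17 bright arrays (colour scale and cell values). The highest value is 0.92 for SLA-DQA1 with SLA-DQB1 and the lowest 0.29 for SLA-DRB1 with SLA-DOA.

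The genes most like the members were taken by Pearson r with the mean of the 8 standardized member levels over the 17 bright arrays, among 4385 other named genes. They were UBD (r = 0.916), a ubiquitin-like modifier, ALOX5AP (0.852), the activating protein of 5-lipoxygenase, and CXCL9 (0.852), a chemokine that draws T cells. KIF16B (0.841), a motor protein of early endosomes, LOC100512977 (0.836), PTGDR (0.835), a prostaglandin D2 receptor, AK4 (0.835), a mitochondrial adenylate kinase, and MOCS1 (0.826), of molybdenum cofactor synthesis, came next. As deviations from the group means, their r ranged from 0.664 for PTGDR to 0.828 for UBD.

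Other genes of the class II route went partly the same way. Of 21 names listed for processing and transport, some of them 2 names of 1 gene, 13 passed the filter. None was called in the pooled fit. With brightness as a block, 2 of 13 were called in RFIneg against RFIpl, both higher, where 4.32% of all kept probes were called and higher. They were CTSB at 0.44 (SE 0.12, adjusted p = 0.032, limma) and CTSD at 0.58 (SE 0.12, adjusted p = 0.0061, limma), which are endosomal cathepsins. In RFIplR against RFIpl 4 of 13 were called, all higher, where 5.85% of all kept probes were called and higher. They were CTSB at 0.43, CTSD at 0.59, the legumain gene LGMN at 0.56, an asparaginyl endopeptidase of endosomes, and B2M at 0.34 (adjusted p = 0.027, 0.0037, 0.034 and 0.012, limma). B2M is the light chain of class I molecules and is also on the class I list below. CD9, a tetraspanin and the fourth of the brightest genes of this list, differed by 0.09 and 0.20 in the same comparisons and was not called. The median of the list was 0.22 in RFIneg against RFIpl and 0.23 in RFIplR against RFIpl, where all kept probes had -0.01 and -0.02.

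Regulators of class II genes were called at about the share of all kept probes. Of 24 listed, 13 passed the filter, and none was called in the pooled fit or in RFIneg against RFIpl with brightness as a block. In RFIplR against RFIpl 1 of 13 was called, where 10.4% of all kept probes were, and it was NFYB, a subunit of the factor that binds the Y box of class II promoters, at -0.45 (SE 0.11, adjusted p = 0.0092, limma). Among the brightest, the interferon gamma receptor chains IFNGR1 and IFNGR2 and the receptor-bound kinase JAK1 differed by 0.25, -0.28 and 0.09 in RFIneg against RFIpl and were not called. The median of the list was -0.08 in RFIneg against RFIpl and -0.09 in RFIplR against RFIpl.

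Of 14 genes listed under co-stimulation 6 passed the filter, and 2 were called with brightness as a block. Both were higher in RFIplR against RFIpl, where 5.85% of all kept probes were called and higher. They were CD274, the inhibitory ligand PD-L1, at 0.81 (SE 0.20, adjusted p = 0.015, limma) and CD58, an adhesion ligand of T cells, at 0.34 (SE 0.09, adjusted p = 0.019, limma). CD274 was dim, with a mean of -3.70 over all arrays. CD86, the ligand of CD28, differed by 0.41 in RFIneg against RFIpl and 0.62 in RFIplR against RFIpl, uncalled in both, as were CD40 at -0.20 and -0.30 and ICAM1 at 0.01 and 0.18. The medians of the 6 were 0.15 and 0.26.

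For class I presentation, which displays peptides of the cytosol, 14 of 17 genes passed the filter. With brightness as a block 0 of 14 were called in RFIneg against RFIpl and 3 in RFIplR against RFIpl, all higher. Of all kept probes 4.32% and 5.85% were called and higher there. The 3 were SLA-2 at 0.44 (SE 0.13, adjusted p = 0.033, limma), SLA-6 at 0.78 (SE 0.23, adjusted p = 0.035, limma) and again B2M. SLA-1 and SLA-3 differed by 0.40 and 0.51 and were not called. The class I heavy chains are near copies of one another, so signal can be shared between their probes. The medians of the list were 0.19 in RFIneg against RFIpl and 0.09 in RFIplR against RFIpl.

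Markers of the cells that could carry class II were measured in part. Of 18 macrophage and monocyte markers 8 were kept, and their summed level (linear scale, relative to the array's 75th percentile) ranged on the bright arrays from 12.5 to 23.8 in RFIneg, 13.5 to 30.9 in RFIplR and 19.0 to 38.2 in RFIpl. On the dim arrays the medians ran the other way, at 18.5 in RFIneg, 19.1 in RFIplR and 16.1 in RFIpl. In RFIneg against RFIpl 1 of the 8 markers was higher over the bright arrays, with a median difference of -0.40, and 7 of 8 over the dim arrays, with a median of 0.24. With brightness as a block 1 of the 8 was called, SIRPA, an inhibitory receptor of myeloid cells, at -0.51 (SE 0.15, adjusted p = 0.039, limma) in RFIneg against RFIpl. The 4 dendritic cell markers kept of 13 summed to 7.42 to 12.2 in RFIneg, 7.84 to 11.2 in RFIplR and 7.23 to 10.75 in RFIpl, with none called. Of 14 B and plasma cell markers 2 were kept, and FCER2 was well above background on 0 of 24 arrays and CD79A on 4. The sums of those 2 ran on the bright arrays from 0.81 to 1.08 in RFIneg, 0.76 to 1.14 in RFIplR and 0.91 to 1.29 in RFIpl. On the dim arrays they ran from 2.04 to 2.15 in RFIneg, 1.56 to 2.42 in RFIplR and 1.87 to 2.23 in RFIpl. For T and NK cells 8 of 16 markers were kept, summing to 10.9 to 22.5 in RFIneg, 13.7 to 21.9 in RFIplR and 11.8 to 20.9 in RFIpl on the bright arrays, with none called. With brightness as a block all 8 were positive in RFIneg against RFIpl, with a median of 0.25, and 6 of 8 in RFIplR against RFIpl, with a median of 0.38. Most of these markers thus had the sign of the class II genes, and none passed the test.

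With brightness as a block, neutrophil, adipocyte and endothelial markers mostly had the sign of the class II genes against RFIpl. Fibroblast markers mostly had the opposite sign. On the bright arrays the 4 neutrophil markers kept of 7 summed to 10.1 to 17.3 in RFIneg and 11.99 to 19.9 in RFIplR, against 3.22 to 10.2 in RFIpl, with RFIpl 3 at 10.2. On the dim arrays they summed to 11.3 to 12.8 in RFIneg, 8.74 to 9.42 in RFIplR and 6.36 to 7.03 in RFIpl. The dim RFIplR sums thus lay inside the range of the bright RFIpl arrays. S100A8, S100A9 and S100A12, calcium-binding proteins of neutrophils and monocytes, were higher in both comparisons against RFIpl with brightness as a block, by 1.12 to 2.18. In the pooled fit S100A8 and S100A12 were called in RFIneg against RFIpl and S100A12 in RFIplR against RFIpl. The fourth marker, ELANE, the elastase of neutrophils, differed by -0.001 and -0.002 in the blocked fit and was not called. On the bright arrays the 10 adipocyte markers summed to 1079 to 1402 in RFIneg, 1109 to 1337 in RFIplR and 848 to 1340 in RFIpl, again with RFIpl 3 the highest RFIpl pig. On the dim arrays they summed to 932 to 1005 in RFIneg, 834 to 953 in RFIplR and 707 to 739 in RFIpl. With brightness as a block 5 of these 10 were called higher in RFIneg against RFIpl, PLIN1, LIPE, ADIPOQ, CIDEC and AQP7, and 3 in RFIplR against RFIpl. Of all kept probes 4.32% and 5.85% were called and higher in that fit. Over the bright arrays alone 1 and 3 of the 10 were called higher, and in the pooled fit none was called. The fibroblast sums, over 6 of 8 markers, ran on the bright arrays from 166 to 354 in RFIneg, 120 to 356 in RFIplR and 276 to 409 in RFIpl. On the dim arrays they ran from 352 to 477 in RFIneg, 351 to 463 in RFIplR and 456 to 482 in RFIpl. The endothelial sums, over 6 of 9, ran on the bright arrays from 61.7 to 86.8 in RFIneg, 63.0 to 98.4 in RFIplR and 46.7 to 71.1 in RFIpl. On the dim arrays they ran from 59.8 to 70.7 in RFIneg, 55.4 to 64.9 in RFIplR and 38.3 to 51.5 in RFIpl. VWF, the von Willebrand factor, was the 1 endothelial marker of 6 called in RFIneg against RFIpl with brightness as a block, at 0.50, and KDR, a receptor of vascular endothelial growth factor, differed by -0.31 there. In RFIplR against RFIpl 3 of 6 were called in the same fit, the junction genes PECAM1 and CDH5 higher, at 0.50 and 0.52, and KDR lower, at -0.74. In both comparisons 4 of 6 were positive. Of the 6 fibroblast markers COL1A2, a collagen I chain, and POSTN, periostin, were called lower in RFIneg against RFIpl with brightness as a block, at -0.72 and -0.98. COL1A2 was also called lower in RFIplR against RFIpl, at -0.64, and none of the 6 was called in the pooled fit. Skeletal muscle sums reached 25.1 in RFIneg and 33.5 in RFIplR, but 1216 in RFIpl, in RFIpl 2, with RFIpl 1 at 36.9. Keratinocyte sums reached 0.73 in RFIneg and 1.24 in RFIplR, but 59.8 in RFIpl, in RFIpl 7. The part of these cell types in the class II differences was not tested.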

How the data were processed

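RNA of 24 subcutaneous adipose samples, 8 pigs per group, was hybridised to one-colour arrays. The scanner files hold intensity values deposited by the authors, made with Feature Extraction 10.7.3.1, background-subtracted per the file headers; flags for spots above background were used as deposited. The authors' deposited table of log2 values (24675 rows) was the same signal centred on each array's median, found by setting it against the scanner files; how its probes were picked is not stated. The submitters' processing notes name R 2.10.0.

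Values were log2 of processed intensity (floor 1) minus each array's 75th percentile. Spots flagged non-uniform and control spots were dropped, and repeated spots were averaged per probe. A probe was kept when well above background on at least 6 of 8 arrays of a group and missing on at most 6; 28606 of 43603 were kept. Saturated spots numbered 0, and arrays all differed from one another (r 0.768 to 0.991). The number of arrays limits the precision, and the labels number the replicates without saying more, so p-values measure the spread between these samples.

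One limma 3.58.1 fit (R 4.3.3, R package data.table, version 1.17.8) over all arrays gave the 3 comparisons, two-sided, Benjamini-Hochberg adjusted over all kept probes at 0.05. Brightness class, split at the widest gap of the 75th percentile, was a block in a second fit. The fits were checked on simulated data. Genes were named through RefSeq's table of Sscrofa11.1, for names and gene order only: 7371 probes by accession, 1501 by gene identifier and 3522 by a symbol and 64 by a synonym in the files, while 38 had several symbols and 31107 none. Python 3.11.15, pandas 2.3.3, numpy 2.4.6 and matplotlib 3.10.9 made tables and figures.

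Each member is given at its probe with the highest mean signal. In each list the 4 brightest genes and every gene called in either fit could be named, except that some single-gene results are not reported here, and the 8 genes most like the members are those with the highest r. Members, lists, tests and the brightness block were chosen with earlier results of these data known; 8 alternatives that combine brightness or scan day with another choice were added after seeing the data, as were the probes outside the rule.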

Additional observations from a re-analysis of the deposited data

How the results depend on the processing

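Counts of called probes moved with array brightness and with array weights (limma; class II probes of 31 in RFIneg against RFIpl, in RFIplR against RFIpl and for any group difference, then all kept probes in the first 2 comparisons). The pooled fit gave 0, 0, 0, 59 and 85. Brightness as a block gave 13, 19, 18, 1895 and 2963. That block with quantile scaling gave 11, 16, 13, 1658 and 2615, with normexp 4, 0, 0, 372 and 766, without RFIpl 1 and 2 gave 1, 7, 3, 550 and 1900, and without RFIpl 7 and 8 gave 6, 8, 4, 884 and 1782. The bright arrays alone gave 0, 7, 2, 297 and 954, brightness and slide as blocks 0, 13, 6, 416 and 1694, and array weights 7, 6, 7, 3064 and 2943, with 4 probes in RFIneg against RFIplR.

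The other alternatives called no class II probe. All kept probes called were 3 and 20 under median scaling, 0 and 4 under normexp, 2 and 38 with no filter, and 0 and 25 with slide as a block. They were 0 and 1 without RFIpl 1 and 2, and 0 and 0 without RFIpl 7 and 8, on the dim arrays, on scan day 1 and on scan day 2. The deposited table gave 39 in RFIneg against RFIpl, and in RFIplR against RFIpl the stricter background filter gave 132 and scan day as a block 258.

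The labels do not say whether same-numbered pigs were matched. Same-numbered arrays had correlations of -0.819 to 0.879 in their deviations from group means, and -0.274 to 0.329 in those from group and brightness means. Such correlations between arrays cannot show whether the pigs were paired. The replicate block gave 0 class II probes and 0 and 2 of all kept probes, and brightness and replicate block together gave 6, 12, 4, 1108 and 1848.

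Leaving out 1 pig at a time, over the pooled fits and those with brightness as a block, class II probes called ran from 0 to 19 in both comparisons against RFIpl and from 0 to 21 for any difference. Within the blocked fits they ran from 6 (without RFIpl 1) to 19 (without RFIpl 3) in RFIneg against RFIpl, and from 11 (without RFIplR 5) to 19 in RFIplR against RFIpl. All kept probes ran from 1 to 3399, from 0 to 55 in RFIneg against RFIplR, and from 22 to 3671 in RFIplR against RFIpl.

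Differences near 0 changed sign most. In RFIneg against RFIplR, SLA-DRA, SLA-DQA1 and SLA-DQB1 were positive in the pooled fit (0.18, 0.07 and 0.06) and -0.041, -0.14 and -0.11 with brightness as a block, while SLA-DMB in RFIplR against RFIpl was -0.05 pooled and 0.17 blocked. The same 4 values were -0.044, -0.15, -0.11 and 0.14 with that block without RFIpl 1 and 2, -0.041, -0.14, -0.11 and 0.13 without RFIpl 7 and 8, -0.041, -0.14, -0.11 and 0.17 with brightness and replicate block, -0.092, -0.18, -0.14 and 0.15 with quantile scaling, and -0.0996, -0.18, -0.12 and 0.16 with slide added. Over the bright arrays they were -0.034, -0.14, -0.13 and 0.070, with SLA-DOA at -0.042 in RFIneg against RFIplR. Over the dim arrays they were -0.075, -0.16, -0.080 and 0.39, with SLA-DMB at -0.014 in RFIneg against RFIplR and SLA-DOA at -0.51 in RFIplR against RFIpl.

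In RFIneg against RFIplR, array weights gave SLA-DRB1, SLA-DQA1 and SLA-DQB1 -0.013, -0.059 and -0.0425, scan day 1 gave them -0.085, -0.13 and -0.066, and quantile scaling gave the DQ genes -0.015 and -0.014. Slide as a block gave SLA-DRA, SLA-DRB1, SLA-DQA1, SLA-DQB1, SLA-DMA and SLA-DMB -0.20, -0.061, -0.28, -0.21, -0.0077 and -0.023, and scan day as a block gave them, without SLA-DMA, -0.16, -0.071, -0.24, -0.17 and -0.0024. Scan day 2 gave those 6 genes -0.57, -0.16, -0.60, -0.49, -0.14 and -0.46, and CD74 0.062. In RFIneg against RFIpl scan day 2 gave the 6 genes -0.42, -0.10, -0.52, -0.47, -0.043 and -0.57; on that day both RFIneg arrays were dim, against 2 of 4 RFIpl arrays. In that comparison slide as a block gave SLA-DQA1, SLA-DQB1 and SLA-DMB -0.0020, -0.0079 and -0.11, and scan day as a block gave SLA-DMB -0.057.

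In RFIplR against RFIpl, SLA-DMB was 0.067 without RFIpl 1 and 2 and 0.051 without RFIpl 7 and 8, SLA-DMA was -0.058 on scan day 1, and SLA-DOA was -0.23 on scan day 2. Normexp gave CD74 0.056 in RFIneg against RFIplR, and SLA-DRA, SLA-DQB1 and SLA-DMA -0.0078, -0.074 and -0.17 in RFIplR against RFIpl; with brightness as a block it gave CD74 0.073 and SLA-DMA -0.023. Leaving out 1 pig gave -0.079 to 0.39 for SLA-DRA, -0.20 to 0.26 for SLA-DQA1 and -0.17 to 0.22 for SLA-DQB1 in RFIneg against RFIplR, and -0.026 to 0.21 for SLA-DMA and -0.27 to 0.24 for SLA-DMB in RFIplR against RFIpl. The causes were not tested. Signal over background kept out only SLA-DOB among the class II genes with a probe.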
